A study of Mus musculus with 12 samples.

Results

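Smc1b, Hormad1, Sycp1, Sycp3, Mael, Ddx4, Stk31, Dazl and Rpl10l are genes of meiosis and of the germ line, measured here in mouse embryonic stem cells (ESC). They were taken by gene symbol from the 28815 probe sets of an expression array, with the probe set chosen by its mean signal, the highest for each gene; no difference between groups entered that choice. The symbol in the file matched exactly for 8 of the 9. Rpl10l was found under an older symbol, EG238217, that RefSeq lists as a synonym. Each had 1 probe set, and all 9 were among the 17637 genes tested.

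The study compared ESC that lack Bmpr1a, a type I receptor for bone morphogenetic proteins, with wild-type ESC, and asked how expression differs when both kinds of cell compete in 1 culture. Cells of the Bmpr1a-/- line carried green fluorescent protein (GFP) and wild-type cells carried no label. Equal numbers were grown together for 3 days in N2B27, a serum-free medium, and then separated by sorting on GFP, or each kind was grown alone in the same medium for the same time. This gave 4 groups of 3 arrays, Bmpr1a-/- cells from mixed culture or grown separately and wild-type cells from mixed culture or grown separately, called mixed and separate below. Genotype, cell line and GFP label go together on every array and cannot be told apart, and the sources used here do not say whether the cells grown alone also passed through the sorter. The file headers number the replicates exp1, exp2 and exp3 in all 4 groups. They do not say what a number shares, or whether the 3 arrays of a group came from separate cultures, so p-values measure the spread between these arrays, which may be technical. Where a fit with that number as a block changes the call of a member, its adjusted p is given. For other genes it is given for some of the calls only. The arrays give the average of a population, in which fewer cells with a transcript and less transcript per cell cannot be told apart.

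Array medians of the linear signal lay between 51.57 and 54.33, and arrays of the same group correlated at 0.9931 to 0.9971 over probe sets. Bmpr1a itself averaged 369.6 ± 9.96 (mixed) and 434 ± 25.0 (separate) in Bmpr1a-/- cells, against 524 ± 27.0 (mixed) and 549 ± 33.8 (separate) in wild-type cells (SD, n = 3 each). How its probes lie relative to the deleted part is not known, so this is a weak check of the labels. All 8 markers of ESC were above the low-signal filter on these arrays. So were all 8 markers of extraembryonic endoderm, so passing this filter does not tell cell types apart.

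In meiosis, homologous chromosomes are held along a proteinaceous axis built on cohesin, pair through the synaptonemal complex and exchange DNA. Germ cells also protect their genome from transposons through small RNAs bound to PIWI proteins (piRNA), made in cytoplasmic granules. Many of these genes have CpG-rich promoters that are silenced outside the germ line by DNA methylation and, in ESC, by a Polycomb complex that contains Pcgf6, L3mbtl2, E2f6 and the Mga-Max dimer. Mga-Max binds the E-box, and E2f6 binds E2F sites. ESC nevertheless carry low levels of several germ cell transcripts.

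The promoters are shown because E-boxes and E2F sites are the letters that this complex reads. Whether the complex acts on the members in these cells was not tested. The 250 bases before the start of each member were read from RefSeq (build GRCm38.p6), and both strands were searched for the E-box CACGTG and for the E2F site GGCGGGA. No match of one motif overlapped a match of the other. The following are the promoters of 3 members that hold an E-box and of the 2 members with the largest genotype differences in mixed culture, which hold neither motif. Each runs 5′ to 3′ on the gene's own strand up to the start, with motif matches in capitals.
Hormad1: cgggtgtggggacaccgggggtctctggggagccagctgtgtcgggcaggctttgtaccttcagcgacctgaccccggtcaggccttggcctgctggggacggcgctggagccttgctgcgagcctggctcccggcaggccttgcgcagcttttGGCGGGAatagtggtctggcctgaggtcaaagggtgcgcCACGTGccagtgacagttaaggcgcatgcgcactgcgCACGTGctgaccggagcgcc
Sycp3: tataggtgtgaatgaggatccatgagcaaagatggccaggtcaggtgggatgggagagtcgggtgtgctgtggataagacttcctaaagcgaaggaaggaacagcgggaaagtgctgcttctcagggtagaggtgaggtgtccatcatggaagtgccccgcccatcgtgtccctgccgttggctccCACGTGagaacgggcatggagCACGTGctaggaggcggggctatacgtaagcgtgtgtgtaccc
Ddx4: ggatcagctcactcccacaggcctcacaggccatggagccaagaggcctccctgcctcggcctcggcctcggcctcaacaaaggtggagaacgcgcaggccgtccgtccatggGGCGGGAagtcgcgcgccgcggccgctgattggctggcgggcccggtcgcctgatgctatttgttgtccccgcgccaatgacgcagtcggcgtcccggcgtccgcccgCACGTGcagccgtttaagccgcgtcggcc
Smc1b: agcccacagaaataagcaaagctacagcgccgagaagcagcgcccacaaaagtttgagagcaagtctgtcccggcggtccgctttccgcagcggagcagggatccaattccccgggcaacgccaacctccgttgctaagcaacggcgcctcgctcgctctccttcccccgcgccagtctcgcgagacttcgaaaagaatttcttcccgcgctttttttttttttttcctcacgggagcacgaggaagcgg
Rpl10l: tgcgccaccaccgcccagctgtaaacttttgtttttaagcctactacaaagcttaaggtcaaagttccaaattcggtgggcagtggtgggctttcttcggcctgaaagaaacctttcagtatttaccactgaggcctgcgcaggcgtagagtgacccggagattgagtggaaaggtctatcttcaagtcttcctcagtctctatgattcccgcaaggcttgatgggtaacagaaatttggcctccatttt
These lie at chr3:95559427-95559676 (plus strand), chr10:88459337-88459586 (plus strand), chr13:112652311-112652560 (minus strand), chr15:85131958-85132207 (minus strand) and chr12:66284402-66284651 (minus strand).

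The E-box was in the promoters of 6 of the 9 members: Hormad1 and Sycp3 with 2 matches each, and Sycp1, Mael, Ddx4 and Stk31 with 1 each. Of 27025 promoters of this length, 6.05% held it. Members also had more CpG than most promoters, with 8 (Rpl10l) to 31 (Ddx4) in 250 bases against a median of 6, and among the 9143 promoters with at least 12 CpG, as in all 6 of these members, 9.88% held an E-box. In 5 of the 6 members at least 1 match lay within 100 bases of the start: at 20 and 57 bases in Hormad1, 43 and 64 in Sycp3, 29 in Ddx4, 55 in Stk31 and 94 in Sycp1. In Mael it lay 223 bases upstream. The E2F site was in 3 members, Hormad1, Mael and Ddx4, and in 9.76% of all promoters. Its letters include a CpG, and no share among CpG-rich promoters was taken for it. Nor was a share of all promoters taken for the distance of an E-box from the start. A match describes letters only, and its absence from Smc1b, Dazl and Rpl10l says nothing about binding.

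**Figure D1:**
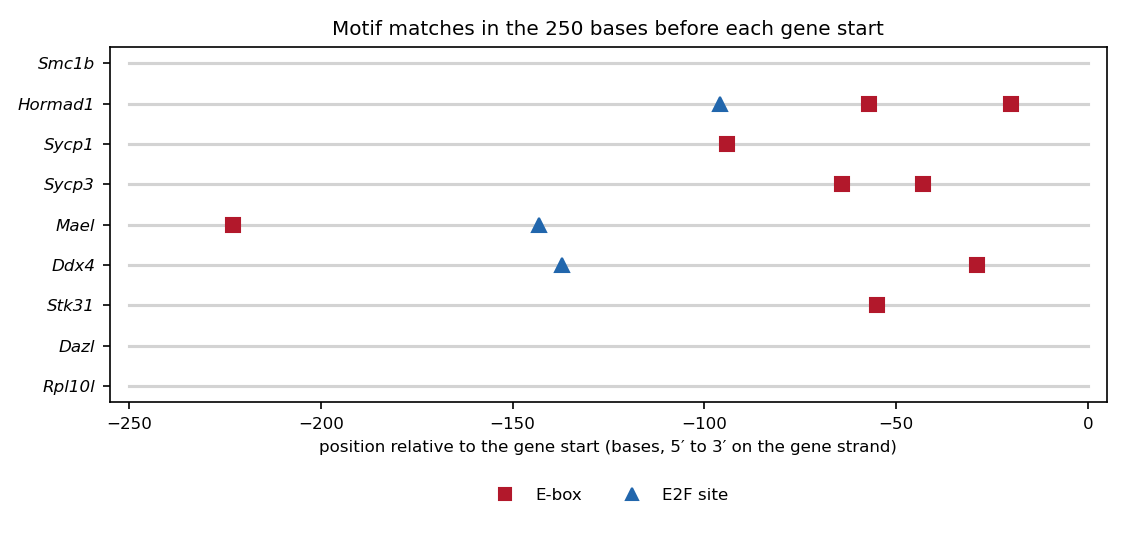
Matches of the E-box (squares) and the E2F site (triangles) in the 250 bases before the start of each of the 9 genes; the horizontal axis is the position in bases relative to the start, on the gene's strand. Hormad1 and Sycp3 hold 2 E-boxes each within 100 bases of the start, and Smc1b, Dazl and Rpl10l hold no match of either motif.

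Group means put most members in one order across the 4 groups. For 8 of the 9 the mean was highest in mixed Bmpr1a-/- cells, next in separate Bmpr1a-/- cells and lower in both wild-type groups, and for Ddx4 the 2 Bmpr1a-/- groups were in the other order. The 2 wild-type groups overlapped for all 9 members, and the 2 Bmpr1a-/- groups were apart for 4 only. The share of all genes with this order was not taken. Levels of different probe sets depend on their probes, so signals are compared within a gene only. Signals below are linear RMA values. Differences are in log2 units, each with its standard error (SE). They were tested with limma over all 17637 genes, and a gene passed at a Benjamini-Hochberg adjusted p under 0.05.

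**Figure D2:**
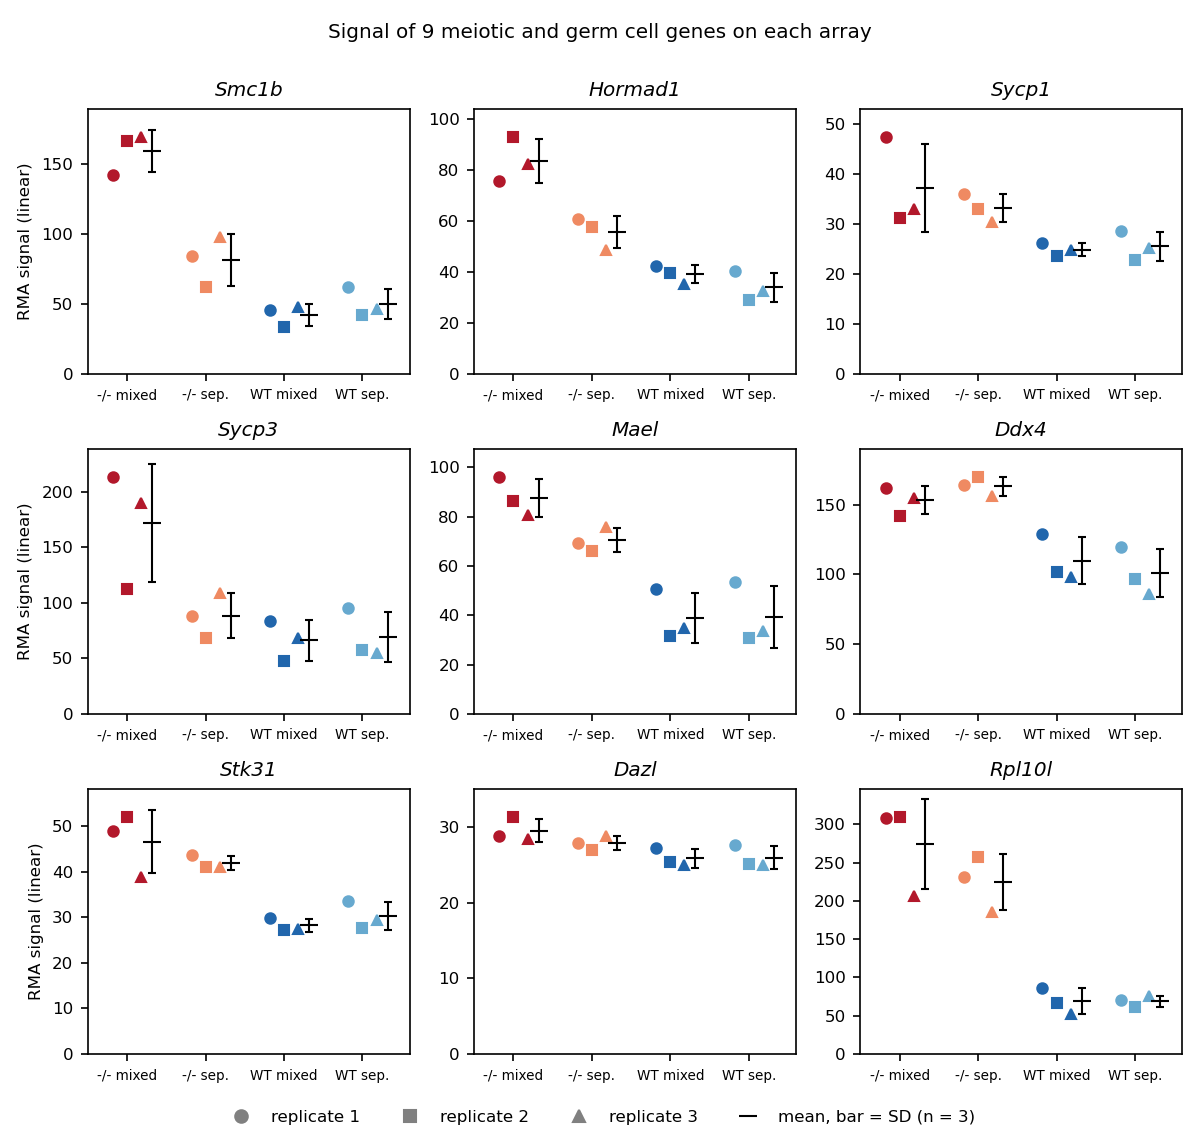
Linear RMA signal of each of the 9 genes on every array, for Bmpr1a-/- cells (-/-) and wild-type cells (WT), each mixed and separate (sep.); symbols mark the replicate number, and black bars the mean and SD of 3 arrays. In 8 of the 9 panels the mean is highest in mixed Bmpr1a-/- cells, and in each panel the 2 wild-type groups overlap.

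Smc1b encodes a subunit of the cohesin ring used in meiosis in place of Smc1a. Its signal was 142, 166 and 169 on the mixed and 84.4, 61.7 and 97.8 on the separate Bmpr1a-/- arrays, against 45.4, 33.1 and 47.4 on the mixed and 61.8, 41.8 and 46.3 on the separate wild-type arrays. Every mixed Bmpr1a-/- array lay above all 9 others, while separate Bmpr1a-/- and separate wild-type arrays met at 61.7 and 61.8. Smc1b was 1.99-fold higher in mixed than in separate Bmpr1a-/- cells (log2 difference 0.99, SE 0.19, adjusted p = 0.021). In Bmpr1a-/- relative to wild-type cells it was higher by 1.94 (SE 0.19, adjusted p = 3.3e-05) in mixed and 0.70 (SE 0.19, adjusted p = 0.029) in separate culture. In RefSeq Smc1b overlaps Fam118a, a symbol that no probe set carries, and the part of Fam118a transcripts in this signal was not tested.

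Hormad1 encodes an axis protein that marks unpaired chromosomes. The signals were 75.5, 92.8 and 82.2 in mixed Bmpr1a-/- cells and 60.7, 57.5 and 48.5 in separate ones, against 42.4, 39.7 and 35.3 in mixed wild-type cells and 40.3, 29.1 and 32.6 in separate ones. The 2 Bmpr1a-/- groups did not overlap each other or the wild-type arrays. Hormad1 was 1.5-fold higher in mixed than in separate Bmpr1a-/- cells (0.59, SE 0.13, adjusted p = 0.04). Relative to wild-type cells, Bmpr1a-/- cells had more by 1.09 (SE 0.13, adjusted p = 0.00012) in mixed and 0.72 (SE 0.13, adjusted p = 0.0037) in separate culture.

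Sycp3, a structural protein of the chromosome axis, had signals of 213, 112 and 189.9 in mixed Bmpr1a-/- cells and 88.2, 68.0 and 109 in separate ones. Mixed wild-type cells had 83.9, 47.2 and 68.3 and separate ones 95.0, 57.9 and 55.1. Replicate 2 was the lowest of the 3 mixed Bmpr1a-/- arrays, the lowest of the 3 separate Bmpr1a-/- arrays and the lowest of the 3 mixed wild-type arrays. The difference between mixed and separate Bmpr1a-/- cells, 0.93 (SE 0.28), did not pass the test (adjusted p = 0.13), although the groups did not overlap. With the replicate number as a block, the same difference had an adjusted p of 0.0077. That fit also uses the wild-type arrays, whose numbers do not all pair. Bmpr1a-/- cells had more Sycp3 than wild-type cells in mixed culture (1.36, SE 0.28, adjusted p = 0.0053). In separate culture the difference of 0.37 (SE 0.28, adjusted p = 0.49) did not pass. Sycp3 overlaps Chpt1, a gene of lipid synthesis, which passed in none of these comparisons (0.20, adjusted p = 0.27, for mixed against separate Bmpr1a-/- cells; 0.06, adjusted p = 0.74, for Bmpr1a-/- against wild-type cells in mixed culture).

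Sycp1 forms the transverse filaments that zip paired chromosomes together. It gave 47.4, 31.2 and 33.0 in mixed Bmpr1a-/- cells and 36.1, 33.1 and 30.5 in separate ones, against 26.2, 23.7 and 24.8 in mixed wild-type cells and 28.6, 22.8 and 25.2 in separate ones. These lie close to the filter for low signal (25.35, the 20th percentile of probe sets), and replicate 1 of the mixed Bmpr1a-/- cells was the highest. The wild-type means, 24.9 in mixed and 25.5 in separate culture, lay at the filter. Sycp1 thus entered the test mainly through its Bmpr1a-/- arrays, which limits what its calls show. Sycp1 rose in mixed Bmpr1a-/- over mixed wild-type cells by 0.56 (SE 0.14, adjusted p = 0.015) and did not pass in separate culture (0.38, SE 0.14, adjusted p = 0.1, and 0.015 with the replicate block) or between mixed and separate Bmpr1a-/- cells (0.14, adjusted p = 0.75).

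Among the genes of germ granules and transposon defence, Mael encodes Maelstrom, which acts in piRNA-guided silencing. On the arrays it read 96.0, 86.4 and 80.8 in mixed Bmpr1a-/- cells and 69.5, 66.2 and 76.0 in separate ones, against 50.6, 31.6 and 34.8 in mixed wild-type cells and 53.6, 30.7 and 33.6 in separate ones. All 6 Bmpr1a-/- arrays lay above all 6 wild-type arrays. The difference was 1.2 (SE 0.20, adjusted p = 0.0012) in mixed and 0.89 (SE 0.20, adjusted p = 0.012) in separate culture. Mixed and separate Bmpr1a-/- arrays did not overlap either, but their difference of 0.31 (SE 0.20) had an adjusted p of 0.53.

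Ddx4, the RNA helicase also called Vasa and a common marker of germ cells, gave 162, 142 and 155 in mixed Bmpr1a-/- cells and 164, 169.5 and 156 in separate ones. Wild-type cells had 129, 102 and 97.9 in mixed and 119.7, 96.7 and 86.0 in separate culture. Here too the genotypes did not overlap, and Ddx4 alone among the members had a larger genotype difference in separate culture (0.71, SE 0.12, adjusted p = 0.0032) than in mixed culture (0.49, SE 0.12, adjusted p = 0.015). The interaction, which tests that contrast itself, did not pass (-0.22, SE 0.17, adjusted p = 0.76). Between mixed and separate Bmpr1a-/- cells the difference was -0.09 (SE 0.12, adjusted p = 0.84).

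Stk31, a germ cell protein with a Tudor and a kinase domain, was at 49.0, 51.9 and 38.9 in mixed Bmpr1a-/- cells and 43.6, 41.0 and 41.0 in separate ones, against 29.8, 27.3 and 27.5 in mixed wild-type cells and 33.6, 27.6 and 29.5 in separate ones. The lowest Bmpr1a-/- array (38.9) exceeded the highest wild-type array (33.6). Bmpr1a-/- cells were higher by 0.72 (SE 0.10, adjusted p = 0.00051) in mixed and 0.47 (SE 0.10, adjusted p = 0.012) in separate culture. The mixed and separate Bmpr1a-/- arrays overlapped (0.14, adjusted p = 0.61).

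Dazl, an RNA-binding protein that promotes translation in germ cells, had the smallest genotype differences of the 9. Its 12 signals ran between 25.0 and 31.3, at the filter for low signal, with means of 29.5 ± 1.52 in mixed Bmpr1a-/- cells and 27.9 ± 0.976 in separate ones and 25.9 ± 1.23 in mixed wild-type cells and 26.0 ± 1.49 in separate ones (SD, n = 3). In mixed culture the genotypes did not overlap, with a difference of 0.19 (SE 0.07, adjusted p = 0.089), and in separate culture it was 0.11 (adjusted p = 0.4). At this level a transcript that is absent and one that is weak look alike.

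Rpl10l is a copy of the ribosomal protein gene Rpl10, on an autosome, that takes its place during male meiosis, when the X chromosome is silent. It had the largest genotype difference of the 9. Signals were 308, 309 and 207 in mixed Bmpr1a-/- cells and 231, 257 and 185 in separate ones, against 86.3, 67.2 and 52.5 in mixed wild-type cells and 70.9, 61.2 and 75.2 in separate ones. The lowest Bmpr1a-/- array (185) exceeded the highest wild-type array (86.3). Rpl10l was 4.02-fold higher in Bmpr1a-/- than in wild-type cells in mixed culture (2.01, SE 0.19, adjusted p = 3.2e-05) and 3.23-fold higher in separate culture (1.69, SE 0.19, adjusted p = 0.00025). Between mixed and separate Bmpr1a-/- cells it did not pass (0.28, adjusted p = 0.57).

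Rpl10 and Rpl10l are close in sequence, and probes of one may bind transcripts of the other. Rpl10 is covered by 6 probe sets that carry several symbols and lie outside the genes tested. Their signals were 5398 to 8742 in mixed Bmpr1a-/- cells and 5346 to 8040 in separate ones, against 3981 to 6867 in mixed wild-type cells and 4074 to 7430 in separate ones. Their Bmpr1a-/- minus wild-type differences were 0.35 to 0.43 in mixed and 0.19 to 0.22 in separate culture, against 2.01 and 1.69 for Rpl10l. The share of the Rpl10l signal that comes from Rpl10 was not tested.

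Set against all genes, 8 of 9 members passed as higher in Bmpr1a-/- than in wild-type cells in mixed culture, where 6.35% of all 17637 genes passed as higher and 16.4% in either direction. Only Dazl did not pass, and Sycp1 entered the test mainly through its Bmpr1a-/- arrays. In separate culture 6 of 9 passed as higher (4.94% of all genes as higher, 11.2% in either direction), with Sycp1, Sycp3 and Dazl not passing. No member was lower in either. The members' median difference was 1.09 in mixed and 0.70 in separate culture, against -0.02 for all genes in each. In mixed culture the 2 genotypes' ranges did not overlap for any of the 9 members, which 12.5% of all genes showed in this direction. In separate culture this held for 6 members (10.7% of all genes). The members were named with results of these arrays known, so these counts describe them and are not independent evidence of a direction. Without wild-type mixed replicate 2 the count in mixed culture was 6, as Sycp1 (adjusted p = 0.057) and Ddx4 (0.062) lost their calls, and Ddx4 lost its call without wild-type mixed replicate 3 (0.069). Without wild-type separate replicate 2 the count in separate culture was 3, as Smc1b (0.13), Mael (0.059) and Stk31 (0.056) lost theirs; the Smc1b call also ended without wild-type separate replicate 3 (0.081), separate Bmpr1a-/- replicate 1 (0.074) or 3 (0.11), and Sycp1 passed without mixed Bmpr1a-/- replicate 1 (0.021).

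In Bmpr1a-/- cells, 2 of 9 members, Smc1b and Hormad1, passed as higher after mixed culture (0.788% of all genes as higher, 1.58% in either direction). In 4 members, Smc1b, Hormad1, Sycp3 and Mael, the ranges of mixed and separate arrays did not overlap, which 7.39% of all genes showed in this direction. The median member difference was 0.28, against -0.02 over all genes. With the replicate block 879 genes passed, against 279 without it, and Sycp3 joined Smc1b and Hormad1. The block was fitted over all 4 groups, and its numbers do not pair every group. Neither call held throughout. When a mixed Bmpr1a-/- array was left out, Smc1b had an adjusted p of 0.089 for replicate 2 and 0.098 for replicate 3, and when a separate one was, 0.056 for replicate 1 and 0.093 for replicate 2. The Hormad1 call ended when replicate 2 (0.16) or 3 (0.13) of the mixed Bmpr1a-/- arrays, any separate Bmpr1a-/- array (0.062, 0.12 and 0.084 for replicates 1, 2 and 3) or replicate 2 of the mixed wild-type arrays (0.06) was left out.

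In wild-type cells no member passed between mixed and separate culture, and neither did any gene (0% of 17637, and 517 genes had an unadjusted p under 0.05). Member differences lay between -0.25 (Smc1b) and 0.21 (Hormad1), with a median of -0.03, an adjusted p of 1 for each and a lowest unadjusted p of 0.12. No member's ranges were apart, which 3.38% of all genes showed as higher.

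Whether the change with mixed culture differed between genotypes was tested by the interaction, in which 0.686% of all genes passed and none of the 9 members. Smc1b came closest, at 1.24 (SE 0.26, unadjusted p = 0.00042, adjusted p = 0.053), with 0.99 in Bmpr1a-/- and -0.25 in wild-type cells. Sycp3 followed at 0.99 (SE 0.40, unadjusted p = 0.028, adjusted p = 0.35). The others lay between -0.22 (Ddx4) and 0.38 (Hormad1). With the replicate block 388 genes passed, against 121 without it, and Smc1b (adjusted p = 0.0096) and Sycp3 (0.044) were among them. Those values rest on pairing in all 4 groups, and the mixed and separate wild-type arrays of replicate 2 did not vary together (correlation -0.104). Smc1b also passed without separate Bmpr1a-/- replicate 3 (0.037), with the filter at the 40th percentile (0.032), with a trended, robust variance (0.026) and with array weights (0.044), and so in 5 of 21 alternatives.

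**Figure D3:**
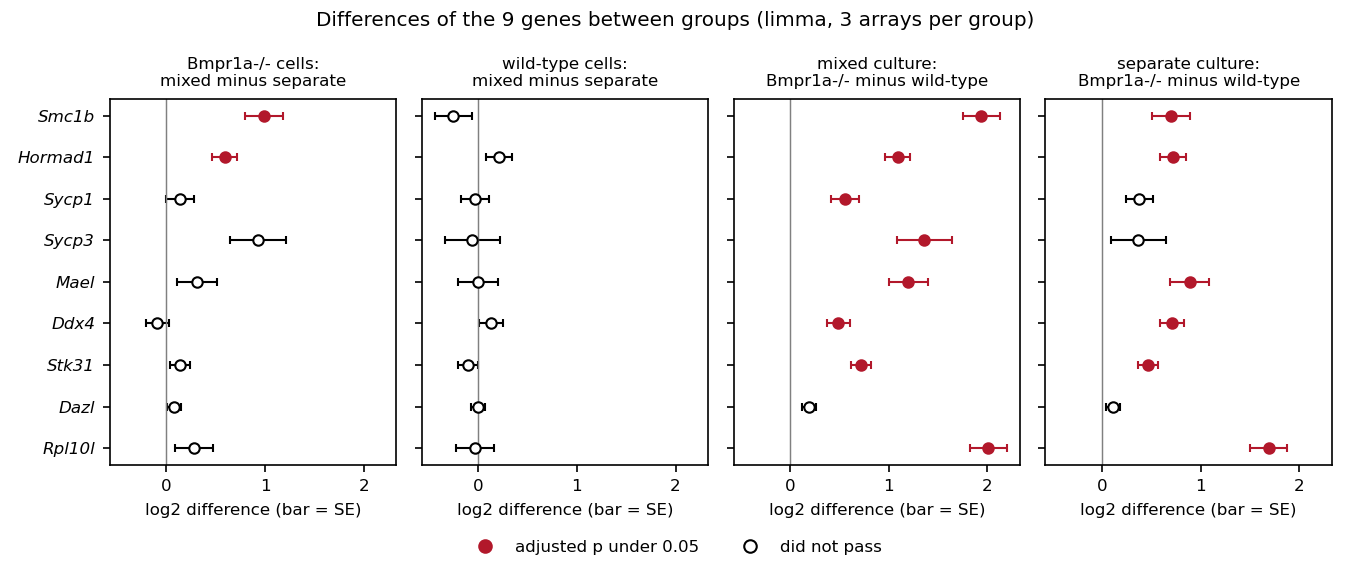
Log2 differences of the 9 genes in 4 comparisons, each with its standard error as a bar; filled points passed at an adjusted p under 0.05 over 17637 genes (limma). Smc1b and Hormad1 are filled for mixed against separate Bmpr1a-/- cells, no gene is filled for wild-type cells, and 8 genes in mixed and 6 in separate culture are filled for Bmpr1a-/- against wild-type cells.

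Other genes of meiotic chromosomes were taken from a list. Of 40 listed, 29 were tested, and the median Bmpr1a-/- minus wild-type difference was 0.11 in mixed and 0.01 in separate culture. In mixed culture 6 rose, 2 fell and 21 did not pass, where 6.35% of all genes passed as higher. The largest rises were Hsf2bp, which helps recombination proteins onto meiotic DNA breaks (1.71, SE 0.18, adjusted p = 6.1e-05), and Stag3, the cohesin subunit specific to meiosis that works with Smc1b (1.08, SE 0.13, adjusted p = 0.00013). Hsf2bp had a signal of 304 ± 42.8 in mixed Bmpr1a-/- cells and 94.3 ± 24.1 in mixed wild-type cells. Syce1, of the central element of the synaptonemal complex (0.49, adjusted p = 0.017), Sgo2a, a protector of centromeric cohesin (0.38, adjusted p = 0.025), and Hormad2, the relative of Hormad1 (0.65, adjusted p = 0.028), rose as well. Psmc3ip, a recombination cofactor (-0.53, adjusted p = 0.00029), and Mns1, a structural protein of spermatids (-0.57, adjusted p = 0.0062), fell.

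In separate culture 5 of the 29 rose and none fell (4.94% of all genes as higher). Besides Hsf2bp (1.10, adjusted p = 0.0022), Stag3 (0.65, adjusted p = 0.0062) and Syce1 (0.54, adjusted p = 0.016), these were Mei4, needed to form meiotic DNA breaks (0.45, adjusted p = 0.0033), and Tex15 (0.55, adjusted p = 0.0059). The Syce1 call in separate culture ended without wild-type separate replicate 2 (0.07) or 3 (0.057) or separate Bmpr1a-/- replicate 2 (0.068). Mei4 (0.12, adjusted p = 0.39) and Tex15 (0.30, adjusted p = 0.078) did not pass in mixed culture. Calls in mixed culture that remained under all 22 alternatives were those of Hsf2bp, Stag3, Psmc3ip and Mns1. Without mixed Bmpr1a-/- replicate 2 or 3 or wild-type mixed replicate 2, 3 of the 29 rose. A further 7 listed genes, Stra8 and Spo11 among them, were below the filter or shared a probe set, and 4 had no probe set of that symbol.

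Of 22 genes of the piRNA pathway and germ granules, 20 were tested, and 4 rose and 1 fell in Bmpr1a-/- relative to wild-type cells in each kind of culture (6.35% of all genes as higher in mixed and 4.94% in separate culture). Tdrd12, a Tudor-domain partner of PIWI proteins, was at 625 ± 52.7 in mixed Bmpr1a-/- cells and 419.7 ± 19.4 in separate ones, against 167 ± 68.2 in mixed wild-type cells and 174 ± 95.0 in separate ones. It differed by 1.98 (SE 0.31, adjusted p = 0.00086) in mixed and 1.40 (SE 0.31, adjusted p = 0.012) in separate culture. Rnf17 (0.87 in mixed and 0.57 in separate culture), the PIWI gene Piwil2 (0.63 and 0.42) and the chaperone gene Fkbp6 (0.57 and 0.40) rose in both, and Ddx25, a helicase of spermatids, fell in both (-0.54 and -0.52). The list's medians were -0.01 and 0.07, and 15 of the 20 passed in neither direction in each. Mov10l1, a piRNA helicase (0.35, adjusted p = 0.19), passed in separate culture with the replicate block (0.037). All 5 calls in mixed culture remained under every alternative, and without wild-type separate replicate 2 none of the 4 rises in separate culture passed.

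Of 28 genes of germ cell identity and RNA binding, 22 were tested. In mixed culture 9 rose and 1 fell in Bmpr1a-/- relative to wild-type cells, with a median of 0.19. Of all genes, 6.35% passed there as higher and 16.4% in either direction. All 10 calls remained under every alternative. The rises included Mageb16 (1.74, adjusted p = 8.1e-05), the nuclear receptor Nr0b1 (1.46, adjusted p = 0.00084), the germ cell transcription factors Sohlh2 (1.31, adjusted p = 0.00017) and Taf7l (1.16, adjusted p = 0.00011), and the primordial germ cell regulators Tfap2c (1.23, adjusted p = 0.00016), Prdm1 (0.65, adjusted p = 0.0002) and Dppa3 (0.84, adjusted p = 0.0083). Kit, the receptor for stem cell factor, fell (-0.60, adjusted p = 0.01). Nr0b1, Tfap2c and Dppa3 are also expressed by ESC. In separate culture 8 rose and 3 fell (4.94% of all genes as higher, 11.2% in either direction). The falls were Kit (-0.98, adjusted p = 0.001), Zbtb16 (-0.57, adjusted p = 0.023) and Dnd1 (-0.54, adjusted p = 0.025). The Zbtb16 and Dnd1 calls ended without wild-type separate replicate 2 (0.07 and 0.1) or separate Bmpr1a-/- replicate 2 (0.1 each), and 6 of the 22 rose without wild-type separate replicate 2.

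Between mixed and separate Bmpr1a-/- cells, Tex14, a component of the bridges between germ cells, was the only gene of these 3 lists to pass (0.37, SE 0.07, adjusted p = 0.029). It was at 52.0 ± 0.788 in mixed Bmpr1a-/- cells and 40.3 ± 3.81 in separate ones, and its call ended without any 1 of 5 of those 6 arrays (adjusted p of 0.058, 0.089 and 0.11 without mixed replicate 1, 2 and 3, and 0.09 and 0.13 without separate replicate 1 and 2). With the replicate block Hsf2bp (0.46, adjusted p = 0.24 without and 0.019 with it) and Sohlh2 (0.50, adjusted p = 0.14 without and 0.018 with it) passed too, as did a fall of Mns1 (-0.47, adjusted p = 0.074 without and 0.036 with it).

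**Figure D4:**
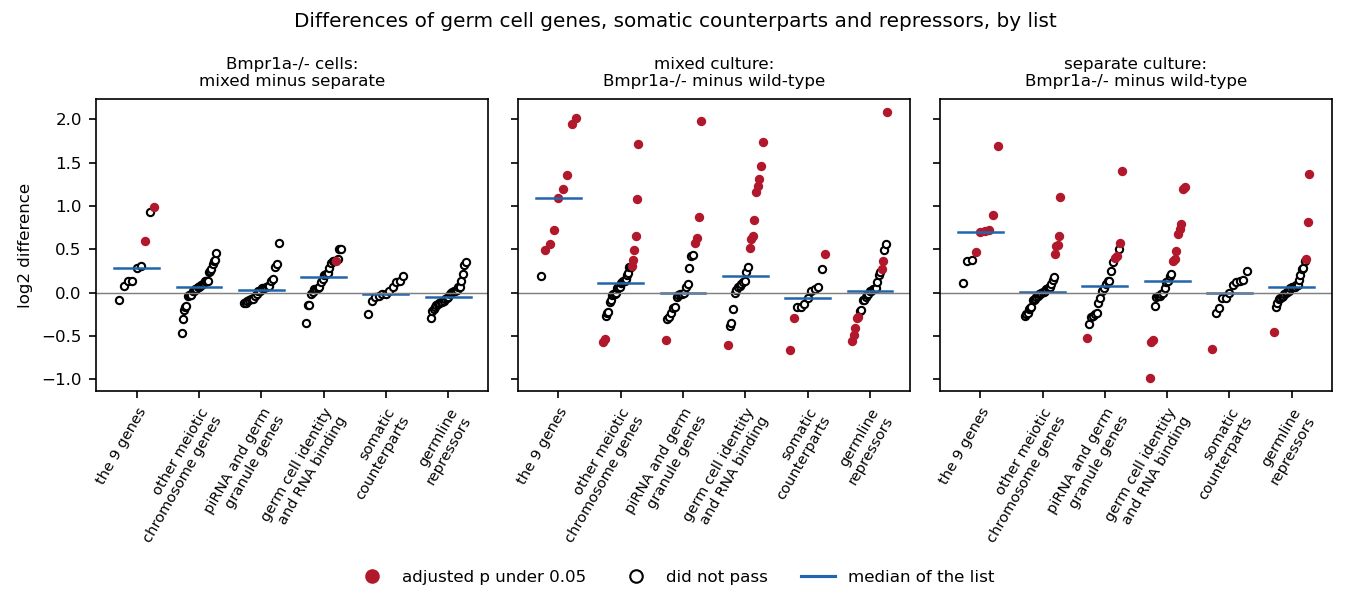
Log2 differences of single genes, by list, for mixed against separate Bmpr1a-/- cells and for Bmpr1a-/- against wild-type cells in mixed and in separate culture; filled points passed at an adjusted p under 0.05 and horizontal lines are medians. The 9 genes have medians of 0.28, 1.09 and 0.70 in the 3 panels, while the other lists have medians between -0.06 and 0.19.

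Somatic counterparts of the members were taken from a list too. The list also holds the ribosomal protein genes Rpl22l1, Rps27l, Rpl39l and Rpl3l, which are not counterparts of a member. Smc1a, the cohesin subunit of dividing body cells, differed by -0.17 (adjusted p = 0.35) in mixed and -0.23 (adjusted p = 0.19, and 0.036 with the replicate block) in separate culture between Bmpr1a-/- and wild-type cells. Smc3 (-0.13 and -0.18) and Rad21 (0.04 and 0.00), which complete the ring, did not pass either, nor did Stag1 (-0.17 and -0.06), Ddx3x (0.07 and 0.15), a helicase of the same family as Ddx4, or Dazap1 (0.02 and 0.12). Of 11 genes of the list tested, 1 rose in mixed culture, the cohesin subunit Stag2 (0.45, adjusted p = 0.0014). The ribosomal protein genes Rpl22l1 (-0.66, adjusted p = 0.011) and Rps27l (-0.29, adjusted p = 0.028) fell, where 16.4% of all genes passed in either direction. In separate culture Rpl22l1 alone passed (-0.65, adjusted p = 0.016). The Rpl39l (0.27, adjusted p = 0.06, and 0.015 with the replicate block) and Rpl3l (-0.06, adjusted p = 0.62) differences in mixed culture did not pass. The Rpl22l1 and Rps27l calls in mixed culture ended without mixed Bmpr1a-/- replicate 2 (adjusted p of 0.056 and 0.096) or wild-type mixed replicate 3 (0.052 and 0.11). The Rps27l call also ended without mixed Bmpr1a-/- replicate 3 (0.086) or wild-type mixed replicate 2 (0.059). In separate culture Rpl22l1 lost its call without separate Bmpr1a-/- replicate 1 (0.054) or 2 (0.057) or wild-type separate replicate 1 (0.051).

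Among 25 tested genes that repress or demethylate germ line promoters, none passed between mixed and separate Bmpr1a-/- cells. In Bmpr1a-/- relative to wild-type cells 3 rose and 5 fell in mixed culture (16.4% of all genes in either direction), and 3 rose and 1 fell in separate culture (11.2%). In mixed culture 2 to 6 rose and 4 to 7 fell over the alternatives. E2f6, the factor that recruits silencing to several meiotic promoters, had a signal of 162 ± 12.6 in mixed Bmpr1a-/- and 215 ± 19.3 in mixed wild-type cells (-0.41, SE 0.09, adjusted p = 0.007). In separate culture it was 199 ± 16.5 in Bmpr1a-/- and 208 ± 7.7 in wild-type cells (-0.07, adjusted p = 0.72). Dnmt3b, a de novo DNA methyltransferase, was 1526 ± 64.8 in mixed Bmpr1a-/- and 2251 ± 84.9 in mixed wild-type cells (-0.56, SE 0.06, adjusted p = 8.8e-05), against -0.16 (adjusted p = 0.12) in separate culture. Neither interaction passed (E2f6 -0.34, adjusted p = 0.3; Dnmt3b -0.40, adjusted p = 0.067), and that of Dnmt3b did with no filter on the mean signal (0.044).

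Other subunits of the complex did not share one direction. Max was higher in mixed Bmpr1a-/- than in mixed wild-type cells (0.37, SE 0.08, adjusted p = 0.007), at 355 ± 29.7 and 275 ± 13.5. Mga (0.49, SE 0.16, adjusted p = 0.054) and Pcgf6 (0.04, SE 0.10, adjusted p = 0.87) did not pass. Mga passed with the replicate block (0.034), without mixed Bmpr1a-/- replicate 1 (0.012) and in 8 of 22 alternatives in all. Yaf2, a subunit of Polycomb complexes, fell in mixed (-0.49, adjusted p = 0.0037) and in separate culture (-0.45, adjusted p = 0.01), and its call in separate culture ended without wild-type separate replicate 2 (0.051). Dnmt3l, a cofactor of DNA methylation that is also active in germ cells, rose in both, by 2.08 (SE 0.27, adjusted p = 0.00025) in mixed and 1.37 (SE 0.27, adjusted p = 0.0067) in separate culture. Means were 609.6 ± 129.5 in mixed Bmpr1a-/- cells and 476 ± 79.2 in separate ones, against 148 ± 55.5 in mixed wild-type cells and 190.0 ± 66.8 in separate ones. Tet1, a DNA demethylase, rose in separate culture (0.81, SE 0.22, adjusted p = 0.03) and did not pass in mixed culture (0.56, adjusted p = 0.1, and 0.047 with the replicate block). Its call in separate culture ended without wild-type separate replicate 2 (0.12) or 3 (0.068) or separate Bmpr1a-/- replicate 2 (0.13) or 3 (0.061). Rybp, a Polycomb subunit related to Yaf2, rose in separate culture at the threshold (0.39, SE 0.12, adjusted p = 0.05), a call that ended in 14 of 22 alternatives. Tet2 (0.27) completed the rises and Hdac2 (-0.29) and Tfdp1 (-0.28) the falls in mixed culture. The part of any of these genes in the members' levels was not tested.

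Summed signals of markers of more mature germ cells overlapped across the 4 groups. Such sums are compared between groups only, not with the members' signals. Several of these genes lay at or below the filter (25.35), such as Acrv1 (21.3 to 24.7) and Oosp1 (21.6 to 23.3). Overlap of the sums therefore does not show that transcripts of mature germ cells were unchanged. For 9 genes of spermatocytes and spermatids, such as the protamine genes Prm1 and Prm2, the summed signal per array was 279 to 287 in mixed Bmpr1a-/- cells and 279.6 to 294 in separate ones, against 273 to 291 in mixed wild-type cells and 275 to 303 in separate ones. None of the 7 above the filter passed in any comparison. For 8 oocyte genes the sums were 224 to 241 and 221 to 233 in mixed and separate Bmpr1a-/- cells, against 219 to 228 and 220.1 to 238 in mixed and separate wild-type cells, and 1 of the 5 above the filter passed, Zp3 (0.42, adjusted p = 0.0096, in mixed culture; 0.051 without mixed Bmpr1a-/- replicate 2). The 6 primordial germ cell markers, all above the filter, summed to 413 to 488 in mixed Bmpr1a-/- cells and 365 to 393 in separate ones, against 279.7 to 327 in mixed wild-type cells and 319.6 to 369 in separate ones. Of these Tfap2c, Prdm1 and Dppa3 rose in mixed culture, while Prdm14 (0.3), Nanos3 (0.0) and Dnd1 (-0.19) did not pass. In separate culture Tfap2c (0.73) and Prdm1 (0.48) rose and Dnd1 fell (-0.54). Dppa3 (0.22), Prdm14 (0.12) and Nanos3 (-0.04) did not pass there, so these markers did not share one direction.

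Markers of the stem cell state also differed by genotype. The summed signal of 8 ESC markers was 9948 to 11207 in mixed Bmpr1a-/- cells and 10787 to 11625 in separate ones, against 6739 to 7373 in mixed wild-type cells and 6218 to 7305 in separate ones. In Bmpr1a-/- relative to wild-type cells 4 of the 8 rose and none fell in mixed culture, and 4 rose and 1 fell in separate culture. Of all genes, 6.35% passed as higher in mixed and 4.94% in separate culture (16.4% and 11.2% in either direction). Zfp42, a marker of the naive state, rose by 2.09 (adjusted p = 0.00025) in mixed and 1.5 (adjusted p = 0.0042) in separate culture, Dppa5a by 3.07 (adjusted p = 0.00011) and 2.37 (adjusted p = 0.0012), and the Nodal co-receptor gene Tdgf1 by 2.57 (adjusted p = 0.00051) and 3.65 (adjusted p = 0.00013). Sox2 rose in mixed culture (0.77, adjusted p = 0.0095; 0.08, adjusted p = 0.86, in separate culture) and Pou5f1 in separate culture (0.75, adjusted p = 0.00025; 0.22, adjusted p = 0.11, in mixed culture). Lin28a fell in separate culture (-0.33, adjusted p = 0.048), a call that ended in 12 of 22 alternatives, and did not pass in mixed culture (-0.29, adjusted p = 0.061, and 0.045 with the replicate block). Utf1 and Sall4 passed in neither. The 7 fibroblast markers, 5 of them above the filter, summed to 451 to 473 in mixed Bmpr1a-/- cells and 397 to 489 in separate ones, against 516 to 555 in mixed wild-type cells and 599.5 to 613 in separate ones. Of these Fbn1 fell in mixed culture (-0.28, adjusted p = 0.01) and Thy1 in separate culture (-0.98, adjusted p = 0.00044). The 8 extraembryonic endoderm markers summed to 376 to 426 in mixed Bmpr1a-/- cells and 389 to 408 in separate ones, against 425 to 466 in mixed wild-type cells and 446 to 488 in separate ones. They did not share one direction. Dab2 fell in mixed (-0.59, adjusted p = 0.0022) and separate culture (-0.68, adjusted p = 0.0019), as did Lama1 (-0.29, adjusted p = 0.021, and -0.43, adjusted p = 0.0042), while Gata4 rose in mixed culture (0.41, adjusted p = 0.036), at 68.1 ± 8.89 in mixed Bmpr1a-/- and 51.0 ± 3.44 in mixed wild-type cells. The Gata4 call ended without any 1 of the 3 mixed wild-type arrays (0.095, 0.05 and 0.12 for replicates 1, 2 and 3) or mixed Bmpr1a-/- replicate 2 (0.15) or 3 (0.11). The Lama1 call in mixed culture ended without wild-type mixed replicate 2 (0.07) or 3 (0.058) or mixed Bmpr1a-/- replicate 1 (0.075) or 3 (0.064).

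Markers of 2-cell-like cells, a rare state of ESC that resembles the early embryo, were measured in part. Of 7 listed, 1 had a probe set of its own, Tcstv3, 3 were found on probe sets that carry several symbols and lie outside the genes tested, and 3 under neither. Tcstv3 rose by 0.51 (adjusted p = 0.00071) in mixed culture and by 0.26 (adjusted p = 0.046) in separate culture. The latter call ended in 14 of 21 alternatives. Means were 33.2 ± 0.891 in mixed Bmpr1a-/- cells and 28.3 ± 2.71 in separate ones. The wild-type means, 23.3 ± 1.31 in mixed and 23.5 ± 0.904 in separate culture, lay below the filter (25.35). Tcstv3 thus entered the test only through its Bmpr1a-/- arrays, which limits what its calls show. Zscan4f and Zscan4d, of a family that defines this state, share 3 probe sets with a further symbol. On the brightest of these Zscan4f had signals of 3706, 4363 and 3046 in mixed Bmpr1a-/- cells and 2130.4, 1921 and 1676 in separate ones, against 114, 59.1 and 97.7 in mixed wild-type cells and 212, 58.0 and 97.4 in separate ones. No Bmpr1a-/- array came near a wild-type array. In a fit that kept probe sets with several symbols, Zscan4f was 42.1-fold higher in Bmpr1a-/- than in wild-type cells in mixed culture (5.4, SE 0.36, adjusted p = 1.8e-06) and 17.9-fold higher in separate culture (4.16, SE 0.36, adjusted p = 4.1e-05). Dub1 passed there too (1.03, adjusted p = 0.00038, and 0.51, adjusted p = 0.038). Its wild-type means, 22.4 in mixed and 22.8 in separate culture, were also below the filter. Between mixed and separate Bmpr1a-/- cells Zscan4f did not pass (0.95, SE 0.36, adjusted p = 0.23), although its arrays did not overlap. The part of these markers in the members' genotype differences was not tested.

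Within groups most pairs of members also varied in the same direction. Over the 12 arrays the 36 pairs of members correlated at 0.664 to 0.961 (median 0.86), which holds the genotype difference. After each group's mean was removed, 32 of the 36 correlations were positive, with a median of 0.509 and a range of -0.295 to 0.812. Replicate 1 was the highest of the 3 mixed wild-type arrays for 8 of 9 members and the highest of the 3 separate wild-type arrays for 8 of 9, the exceptions being Smc1b in mixed and Rpl10l in separate culture. In mixed Bmpr1a-/- cells replicate 1 was highest for 4 members, and in separate Bmpr1a-/- cells for 3. No share over all genes was taken for these counts. Among the ESC markers, Zfp42 was also highest in replicate 1 of both wild-type groups, and Sox2 was lowest there. The pattern is therefore not particular to the members, and its cause was not tested.

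The genes whose profiles over the 12 arrays were most like each member's, by Pearson correlation, were mostly from outside the germ line. For Smc1b they were the lipid carrier gene Apoe (0.986), Lrrc31 (0.984) and Mtf2, a Polycomb-associated protein (0.982). Apoe rose in mixed over separate Bmpr1a-/- cells too (0.82, SE 0.13, adjusted p = 0.01) and Mtf2 by 0.28 (SE 0.06, adjusted p = 0.046). Mael was most like Tdrd12 (0.989), Zfp640 (0.987) and Zfp42 (0.985). Rpl10l was most like the dehydrogenase gene Hsd17b14 (0.992), Tmem92 (0.981) and the vitamin C transporter gene Slc23a1 (0.981), and Stk31 like the haem oxygenase gene Hmox1 (0.981), Hsd17b14 (0.98) and Elf3 (0.978). For Hormad1 the nearest was the nucleotide transporter gene Slc17a9 (0.969), for Sycp3 the prostaglandin dehydrogenase gene Hpgd (0.96), for Sycp1 Ergic2 (0.96), for Dazl Ttc39b (0.967) and for Ddx4 Utp14a (0.967). These correlations describe 12 arrays that fall into 2 genotypes, which all such genes share.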

How the data were processed

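RNA of 12 samples (4 groups of 3) was hybridised to Affymetrix Mouse Gene 1.0 ST arrays. Per the file headers and the submitters' processing notes, the authors ran RMA in Affymetrix Expression Console 1.2 (background correction, quantile normalization, summary per transcript) and left out 1 further array of another day for a problem with its file. The deposited series table and 1 workbook sheet hold log2 values centred per probe set. A further workbook sheet, which the authors call raw, holds linear intensity: on the log2 scale it differed from the centred values by a constant within each probe set (spread up to 2.2e-06), so it is RMA signal. The log2 of that sheet was analysed, because levels are needed. The sources used here do not give the genome build behind the probe sets.

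Of 28815 probe sets, 22731 had 1 symbol, 2447 several and 3637 none. Symbols were updated through a RefSeq table (16822 current, 3931 updated, 1978 kept). Probe sets with 1 symbol and a mean signal at or above the 20th percentile (25.35) were kept, with the highest mean per gene, which left 17637 genes. Group means were fitted with limma 3.58.1 in R 4.3.3 (8 residual degrees of freedom, moderated to a median of 12.7). The call threshold was a Benjamini-Hochberg adjusted p of 0.05 across the 17637 genes (two-sided), and differences are log2, first-named group minus the other. The fit was tested on simulated data. The number of arrays limits the precision.

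The members, the gene lists (from general knowledge) and the tests were chosen with earlier results of these data known. Named in the text are the 9 members, the Bmpr1a check, the 3 largest differences and the called genes of each list (beyond 6, those of smallest p; a few calls are given only as counts), the somatic counterparts, Max, Mga, E2f6, Pcgf6, Dnmt3l, the genes overlapping a member, the markers, and the 3 genes most correlated with each member, leaving out unnamed models (symbols such as Gm with digits or ending in Rik). Mov10l1, Zscan4f, Zscan4d and Dub1 were named after their values were seen. Replicate numbers come from the titles, and the file headers write them as exp1 to exp3 in every group. Deviations from the group means correlated between arrays of the same number at 0.394, 0.148 and 0.365 for mixed and separate Bmpr1a-/- cells. For mixed Bmpr1a-/- and mixed wild-type cells the values were 0.641, 0.381 and 0.421. Arrays of the same number were closer than others there, by little for replicate 2 of the Bmpr1a-/- cells (0.148 against 0.088). For the other 2 comparisons at least 1 correlation was under 0.1, and there the pairing rests on the header's number alone. The block was fitted over all 4 groups, so this limit reaches every block value. Alternatives changed the filter, normalization, choice of probe set, variance model, arrays in the fit, replicate block and each array in turn.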

Additional observations from a re-analysis of the deposited data

How the results depend on the processing

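No member that passed changed direction under any alternative. Leaving out 1 array at a time gave 50 to 391 genes and 0 to 2 members for mixed against separate Bmpr1a-/- cells. For Bmpr1a-/- against wild-type cells it gave 1853 to 3121 genes and 6 to 8 members in mixed culture, and 1085 to 1968 genes and 3 to 7 members in separate culture. For the interaction it gave 25 to 132 genes and 0 to 1 members. The lowest counts came without mixed Bmpr1a-/- replicate 2 (50 and 1853 genes), separate Bmpr1a-/- replicate 2 (1085) and wild-type mixed replicate 2 (25). Under every alternative the count for mixed against separate wild-type cells was 0. For mixed against separate Bmpr1a-/- cells, array weights gave 455 genes, and the arrays of these 2 groups alone gave 46 genes and 0 members, in a fit with fewer arrays. Of the members 1 passed there with no filter and 1 with arrays centred on their median. In separate culture the 2 groups alone gave 1172 genes. For the interaction array weights gave 211 genes and 1 member, and 1 member also passed with the filter at the 40th percentile and with a trended, robust variance. That member was Smc1b each time (adjusted p between 0.026 and 0.044). Dazl passed in mixed culture with a trended, robust variance (0.03) and with array weights (0.035). The causes of these shifts were not tested.

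With the replicate number as a block, 879 genes passed for mixed against separate Bmpr1a-/- cells and 388 genes and 2 members, Smc1b (0.0096) and Sycp3 (0.044), for the interaction. Sycp1 passed in separate culture with the block (0.015), where deviations of same-numbered arrays do not all correlate. The same limit holds for the interaction and for mixed against separate Bmpr1a-/- cells, since the block fit uses all 4 groups.

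Signals near the filter limit what can be said of Dazl and Sycp1. With 3 arrays per group, differences that did not pass are not shown to be absent.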
